A study of Mus musculus with 2 samples.

Results

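The 9 TBX5 sites described here lie in a 500 kb window on mouse chromosome 17, from 73.2 to 73.7 Mb of build mm9, around the genes Lbh and Lclat1. They are the sites of the list whose summit falls in that window, 9 of 8849. The window was chosen by the measured fold over control and number of TBX5 fragments, since it holds the site that is first of the whole list in each. The fold, the fragments and every other value from the same comparison are therefore given as a description, with no test. Chromatin came from the heart ventricles of wild-type C57BL/6 mice aged 15 weeks, with no treatment, and was fixed with 2% formaldehyde. One group was immunoprecipitated with an antibody against TBX5 (HPA008786) and the other with rabbit IgG to measure unspecific pull-down, in 2 biological replicates each. A single list of merged TBX5 peaks was used, so the spread between replicates is unknown for every value. The labels do not give the sex of the mice. Whole ventricle holds several cell types, and more cells bound at a site cannot be told apart from more frequent binding per cell.

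TBX5 is a T-box transcription factor that binds DNA together with partners such as NKX2-5 and GATA4 and is required for the development of the heart and its conduction system. Lbh, named after limb bud and heart, encodes a small nuclear cofactor of transcription that can lower the activity of TBX5 and NKX2-5 on target promoters. In mice, misexpression of Lbh in the heart disturbs heart development. Lclat1, also called Alcat1, encodes a lysocardiolipin acyltransferase, which exchanges the fatty acids of cardiolipin, the signature lipid of the inner mitochondrial membrane. In the gene table at hand, of assembly GRCm38.p6, Lbh and Lclat1 are next to each other among protein-coding genes, with 5 non-coding genes between them. Alk, a receptor tyrosine kinase gene, and Ypel5 come before Lbh, and Capn13, a calpain protease gene, and Galnt14, which encodes an enzyme that starts mucin-type O-glycans, come after Lclat1.

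The 250 bases before the annotated start of each gene are shown because the window is named for these genes; they are RefSeq sequence of GRCm38.p6, plus strand, chr17:72918055-72918304 for Lbh and chr17:73107735-73107984 for Lclat1. Those coordinates belong to another build than the peaks and cannot be set against them. Whether any of the 9 sites lies on a promoter was not analysed here.
Lbh: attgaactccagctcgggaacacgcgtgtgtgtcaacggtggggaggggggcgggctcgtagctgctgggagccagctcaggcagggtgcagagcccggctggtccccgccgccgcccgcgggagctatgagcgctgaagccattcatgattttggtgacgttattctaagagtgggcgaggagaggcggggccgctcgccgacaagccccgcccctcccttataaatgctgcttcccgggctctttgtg
Lclat1: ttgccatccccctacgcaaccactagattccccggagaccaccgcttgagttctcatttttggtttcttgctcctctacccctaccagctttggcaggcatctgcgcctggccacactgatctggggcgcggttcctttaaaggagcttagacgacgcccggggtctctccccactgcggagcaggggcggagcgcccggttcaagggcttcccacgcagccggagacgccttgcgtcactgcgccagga
Capitals would mark a match, and there are none. The letters AGGTGT of the T-box motif, searched on both strands, are in neither sequence and in 11.8% of the 32851 promoter stretches of this length in the table. The NKX2-5 letters AAGTG were also in neither, and in 40.7% of the stretches. The TEAD factor letters GGAATG were in neither, and in 12.6%. The letters of the motif bound by GATA factors, AGATAA, were in neither, and in 9.99%. Motifs were searched one by one, so a base shared by 2 matches would count for both. The absence of a match says only that these letters are not in this window. Both stretches are rich in G and C, with 64.8% for Lbh and 62.4% for Lclat1 against a median of 52.4%.

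TBX5 sites in the window ranged from among the weakest to the strongest of the list. They are called sites 1 to 9 in their order along the chromosome. For each, the list gives a fold over the local control level, and the TBX5 fragments over the summit were computed from this fold and its −log10 p. The control level is the number of control fragments per position, taken by the caller as the highest of 4 values: the count over the summit, its mean in 1 kb, its mean in 10 kb, and a genome background of 1.175. Intervals are exact 95% Poisson intervals and cover counting error only, since PCR copies cannot be told from separate molecules.

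Site 1 (chr17:73275775-73275899) held 27 TBX5 fragments (17.8 to 39.3) over a control level of 5.375, and its fold was 3.49. Site 2 (chr17:73287372-73287723) held 43 fragments (31.1 to 57.9) over 4, with a fold of 6.96. Their summits were 11.7 kb apart. Site 1 was below the median of all sites in fold and in fragments, and site 2 above it in both. Site 1 was as narrow as any peak in the list, at 125 bp.

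Site 3 (chr17:73322421-73322629) was the shallowest of the 9, with 19 fragments (11.4 to 29.7) over a control level of 3 and a fold of 3.99. Site 4 (chr17:73325533-73326000), 3.22 kb further on, held 113 fragments (93.1 to 136) over 5, a fold of 15.0. Site 5 (chr17:73326065-73326506) held 37 fragments (26.1 to 51.0) over 4, a fold of 6.02. Sites 4 and 5 were separated by 64 bp, with summits 509 bp apart, and 2 neighbouring sites cannot be told apart here from 1 longer region.

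Site 6 (chr17:73371708-73372413) held the most TBX5 fragments of the list, 230 (201 to 262), over a control level of 17, which left it at a fold of 10.1. Site 7 (chr17:73421591-73422055) held 77 fragments (60.8 to 96.2) over 4, a fold of 12.3. Both stood alone, with no other site within 25 kb, and lay 49.6 kb from each other.

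Site 8 (chr17:73571515-73571707), after a stretch of 150 kb without a site in the list, held 31 fragments (21.1 to 44.0) over a control level of 7 and had the lowest fold of the 9, 3.17. Site 9 (chr17:73575242-73575719), 3.92 kb beyond it, held 170 fragments (145 to 198) over a control level of 2, and its fold of 44.9 is the highest in the list. The weakest fold of the window and the strongest of the whole list were thus neighbours.

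**Figure D1:**
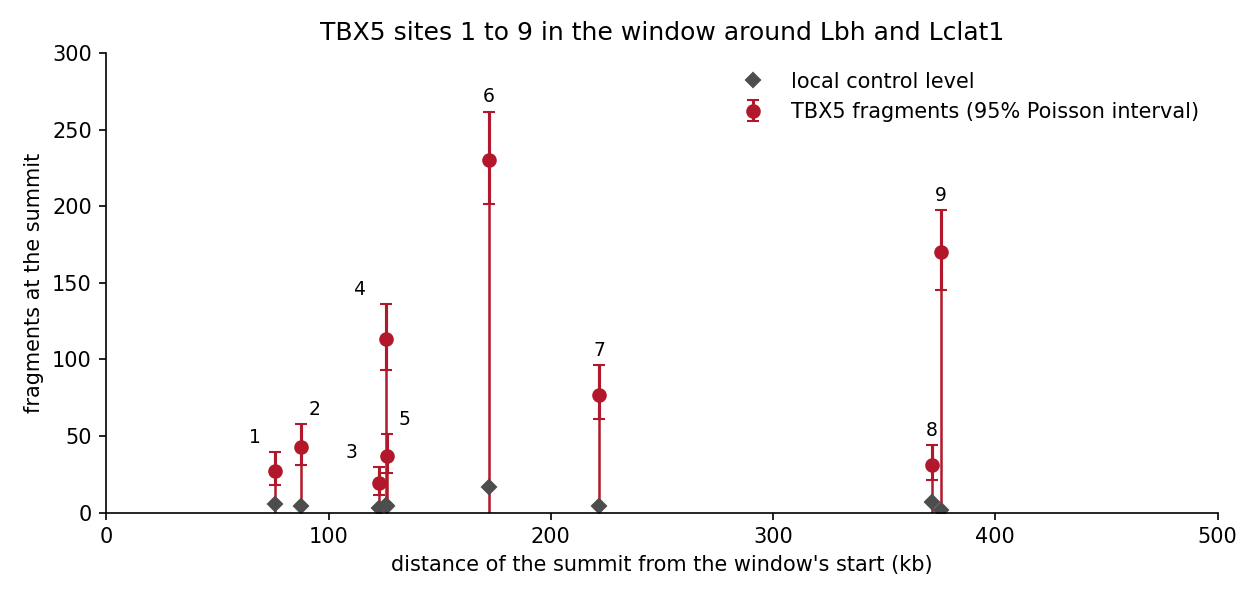
TBX5 fragments at the summit (circles with 95% Poisson intervals) and local control level (diamonds) of sites 1 to 9, by distance of the summit from the window's start in kb. Sites 6 and 9 rise to 230 and 170 fragments, and only site 6 has a control level above 7.

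Sites 6 and 9 lay 203 kb apart and together held 53.5% of the 747 fragments summed over the 9 summits. Site 6 had 1.35 times the fragments of site 9. Their intervals did not overlap, but both sites were chosen for their fragments or fold, so this is no test. Site 9 had 4.44 times the fold of site 6. The orders by fragments and by fold thus put different sites first. Taken as a count at the summit, the control level was 17 at site 6 (9.90 to 27.2) and 2 at site 9 (0.242 to 7.22). In score, which the list takes from the q-value, site 9 ranked 3 in the list and site 6 ranked 72. Site 9 ranked 34 in fragments, and site 6 ranked 1192 in fold. The treatment of duplicate reads is not given in the sources used here. If 1 read per position and strand had been kept over the merged reads, fragments of 125 bp could cover a base at most 250 times. In the list, 8 sites held 200 or more. Had duplicates been removed in each replicate before merging, the ceiling would be higher.

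The number of TBX5 fragments ordered the window as sites 6, 9, 4, 7, 2, 5, 8, 1 and 3. Overlap of intervals is given as description only, since sites 6 and 9 were chosen for these values. The intervals of sites 6, 9 and 4 were separate from each other. Those of sites 4 and 7 overlapped slightly. Site 7 was clear of site 2, and from site 2 downward each interval overlapped that of the next site. By fold the order was sites 9, 4, 7, 6, 2, 5, 3, 1 and 8. With the control level held fixed, the interval of site 9 (38.5 to 52.1) stood clear of that of site 4 (12.4 to 18.0), while sites 4 and 7 (9.76 to 15.3), 7 and 6 (8.85 to 11.5), and 6 and 2 (5.10 to 9.31) overlapped.

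The fold adds a pseudocount of 1 to both sides, and its interval above leaves out the error of the control. Without the pseudocount and with the counting error of both libraries (exact conditional binomial intervals, the control level taken as a count at the summit), the ratio was 66.9 at site 9 (18.2 to 557) and 10.6 at site 6 (6.50 to 18.6). The intervals then overlapped at their ends. The control interval of site 9 reaches down to 0.242, below the background of 1.175 that is the caller's lowest level. The upper end of 557 thus lies beyond what the caller's levels allow. A whole-number level can also be a 1 kb average, which rests on more fragments. At site 4 the ratio was 17.8 (7.40 to 55.8) and at site 7 it was 15.1 (5.68 to 57.0). With 2 to 5 control fragments, the size of a high fold was thus known only within wide limits. Among all sites, site 9 ranked 4 by this ratio without a pseudocount and 2 with a pseudocount of 5, so its first place by fold holds at the caller's pseudocount only among the 3 values tried.

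**Figure D2:**
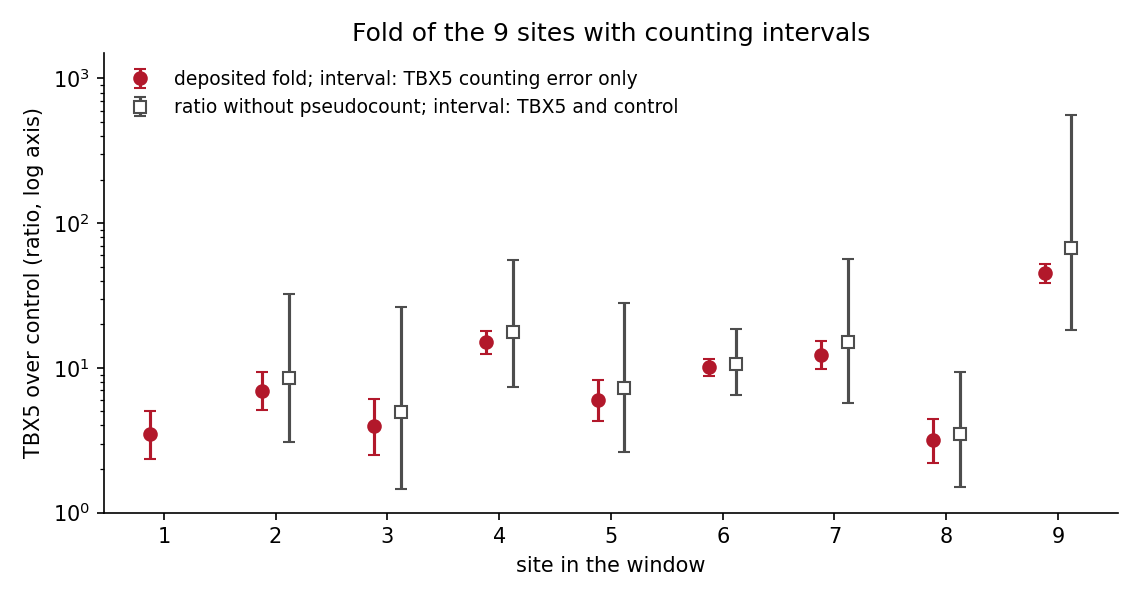
Fold over control of sites 1 to 9 on a log axis, as deposited (circles, interval from the TBX5 count alone) and as a ratio without pseudocount (squares, interval from both counts; site 1 has none because its control level is an average). Site 9 is highest on both scales, and its interval widens from 38.5 to 52.1 on the first to 18.2 to 557 on the second.

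Sites 6 and 9 differed widely in control level. A control level of 15 or more was found at 119 sites of the list (1.34%), and of the 9 only at site 6. The median fold of these 119 sites was 2.56 on 57 fragments. Site 6 had the highest fold among them, followed by 7.92 at a chromosome 16 site (chr16:56029767-56030307, 170 fragments over 16) and 7.09 at a chromosome 3 site (chr3:98214531-98215303, 161 over 17). A control level of 2, within 0.002, was found at 764 sites, with a median of 23 fragments and a median fold of 6.36. Site 9 had the most fragments of these, and the next was a chromosome 10 site (chr10:76048891-76049256) with 145 (122 to 171), which overlapped the interval of site 9. In the whole list, the site next to site 6 in fragments was on chromosome 5 (chr5:122544389-122544948), with 217 (189 to 248) over a control level of 12. The next to site 9 in fold, also on chromosome 5 (chr5:113361988-113362539), had a fold of 44.1. Neither first place was clear of the next by its counting interval.

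**Figure D3:**
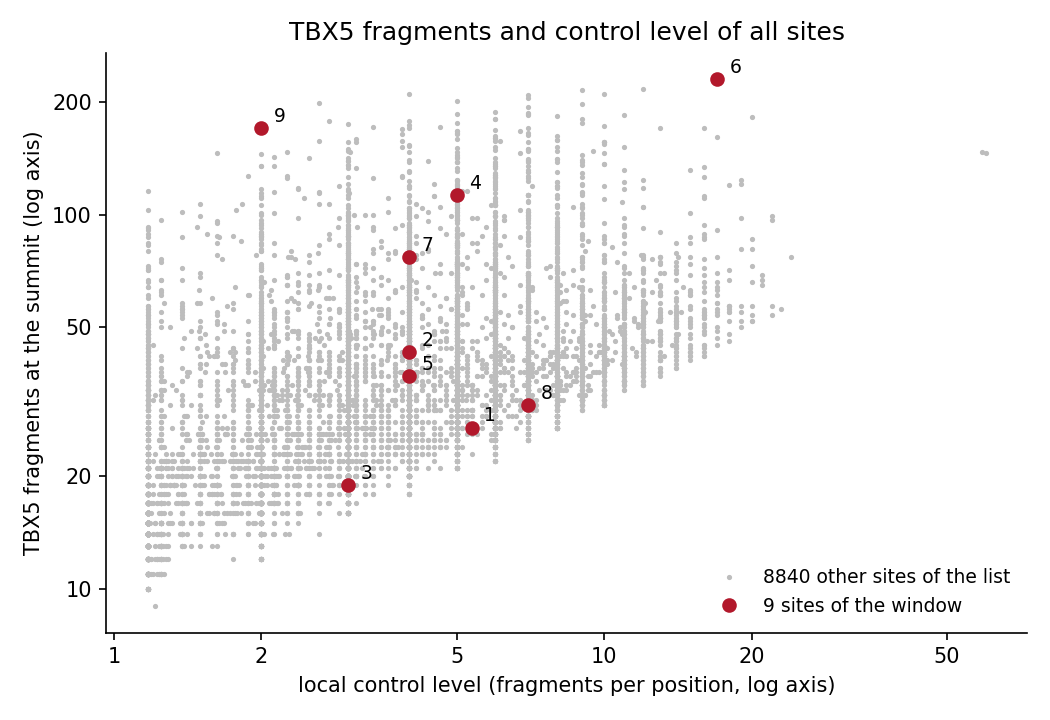
TBX5 fragments at the summit against local control level, both on log axes, for the 9 sites of the window (numbered) and the 8840 other sites of the list. Site 6 is the highest point, at a control level of 17, and site 9 is the highest of those at a level of 2.

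The 9 sites spanned most of the range of the list. Of the 9, 4 (sites 4, 6, 7 and 9) had a fold of at least 10, against 13.7% of all sites. The same 4 sites held 60 or more fragments, against 13.4% of all sites. Among the 100 highest scores of the list (1.13% of all sites) were sites 6 and 9. The window was chosen with these values, so nothing is read from the counts. The other 5 sites were lower by the same measures. In fold, site 2 lay at percentile 68.7 of the list, site 5 at 58.1, site 3 at 21.6, site 1 at 13.0 and site 8 at 8.44. The median of the 9 was 43 fragments and a fold of 6.96, beside 32 fragments and a fold of 5.52 over all sites. The median control level was 4 in the window and 3.5 in the list. At 8 of the 9 sites the level was a whole number within 0.002, against 60.9% of all sites. A count at the summit appears so, but a 1 kb average can also be whole. At site 1 the level was a step of the 1 kb average.

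Sites 4, 5, 6, 7 and 9 were 400 bp or wider (468, 442, 706, 465 and 478 bp), 5 of 9 against 8.93% of all sites. Site 5 was nearly as wide as site 4 although it held 37 fragments against 113. Site 6 was wider than 61 of the 75 other sites with 150 or more fragments, whose median width was 520 bp, and site 9 was wider than 25 of its 75. The summit of site 6 lay at 64.2% of its width and that of site 7 at 26.0%, while the other 7 lay between 36.3% and 54.8%.

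Spacing within the window was uneven. Joining sites less than 25 kb apart put 7 of the 9 into groups, against 48.4% of all sites. At a distance of 5 kb, sites 1 and 2 were no longer joined. The groups were sites 1 and 2 (11.9 kb), sites 3, 4 and 5 (4.09 kb) and sites 8 and 9 (4.21 kb). Of the 4 sites with 60 or more fragments, site 4 had a shallower site on either side, site 9 had a shallower one before it, and sites 6 and 7 had no neighbour. The window had no close neighbours after it. The last site before it, 106 kb before site 1, had 23 fragments, a control level of 2 and a fold of 6.36. The first after it, 770 kb beyond site 9, had 160 fragments, a control level of 6 and a fold of 18.1. They lie 30.0 and 645 kb outside the window. The caller's peak numbers ran without a gap from the site before the window to the site after it. In the whole list the numbers go up to 8922 for 8849 peaks. Some are thus missing elsewhere, and ranks and shares hold among the listed peaks only.

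The number of sites in the window is found elsewhere more often than its number of strong sites. Overlapping windows of the same length, starting every 50 kb over chromosomes 1 to 19 and X, held a median of 1 site, and 2.92% held 9 or more, up to 26. Windows with at least 4 sites of 60 or more fragments made up 0.392%, and those with at least 747 summed fragments 0.176%. At least 2 of the 100 highest-scoring sites fell in 0.0595% of windows, which form 7 separate stretches. The others are on chromosomes 1, 5, 8 (2 stretches), 9 and 13, and no window held 3. Overlapping windows share sites and the Lbh window was chosen for its strong ones, so these shares only describe where the window falls in this list.

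The other 9 of the 10 highest-scoring sites of the list are described here by the sites around them. In 500 kb windows centred on these 9, 3 to 23 sites were found, with a median of 7, and 3 of the windows held at least the 9 sites of the Lbh window. The second-deepest site held 37 to 138 fragments (median 54), against 170 in the Lbh window. The Lbh window was chosen for holding the leading sites of 2 measures, and the others were not, so this difference comes with the choice. By fold, the second-highest site of the other windows ran from 6.34 to 28.2 (median 9.97), and 2 of the 9 were above the 15.0 of the Lbh window. A second site of the 100 highest scores was found in 1 of the 9, around a chromosome 13 site (chr13:12225634-12226451), whose window held 23 sites and 995 summed fragments. The Lbh window is not centred on its leading site; centred on site 9, a window of the same length held 6 sites, 4 of them with 60 or more fragments, and 658 summed fragments, a setting chosen after the data were seen. The second-deepest site was then still site 9 itself, below site 6.

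**Figure D4:**
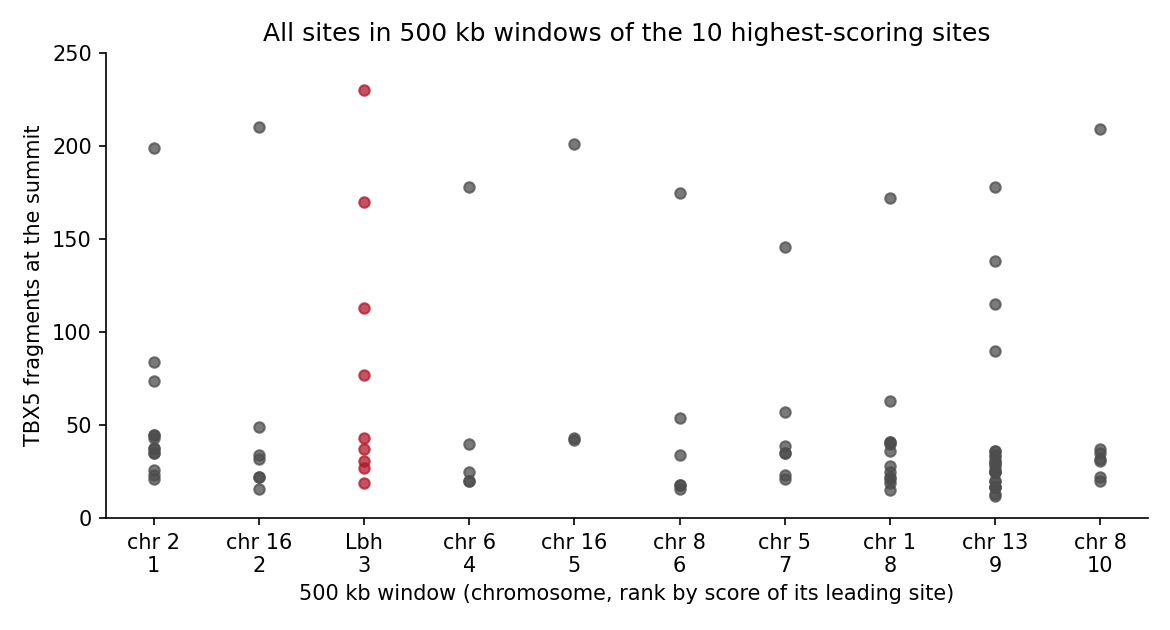
TBX5 fragments at the summit of every site (points) in 500 kb windows of the 10 highest-scoring sites, labelled by chromosome and rank by score; the Lbh window (red) is as defined, the others are centred on their leading site. The Lbh window holds points at 230, 170, 113 and 77, and the highest second point elsewhere is 138, on chromosome 13.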

How the data were processed

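ChIP-seq libraries of mouse heart ventricle were made with an antibody against TBX5 or with IgG, and the merged TBX5 peak list was analysed. The submitters' processing notes name MACS2 (version 2.1.1.20160309.0) as a tool, besides Bowtie2 (version 2.2.6.2) and FastQC (version 0.10.0), and mm9 as the build. Not given in the sources used here are the settings of the caller, its control library, the handling of duplicates and the way of merging. For each peak the authors deposited a fold (a ratio over the local control), a −log10 p, a −log10 q and a score. Coordinates are mm9, counted from 1.

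TBX5 fragments and control level were recovered for each peak by solving its deposited fold and −log10 p together, with fold = (scaled fragments + 1) / (control level + 1) and p the upper Poisson tail. One scale, 0.787, solved all 8849 peaks, with a largest difference of 0.000137 on −log10 p. A second solution within 0.005 existed for 263 peaks, none of them in the window, and the closer was taken. Tested on simulated data made with the same formulas (3807 and 3966 peaks), the recovery was right for 100% of peaks. This checks the solving, not whether the caller used these formulas. The narrowest peak, 125 bp, was taken as the fragment length.

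The gene table is of another build (76 peaks on 7 chromosomes lie beyond its last gene), so it gave only names and gene order. The rule for named genes was Lbh, Lclat1 and the genes next to them. All sites of the window are described. The window, members and lists were chosen with earlier results of these data known. Scripts ran in Python 3.11.15 with pandas 2.3.3, scipy 1.17.1, matplotlib 3.10.9 and numpy 2.4.6.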

Additional observations from a re-analysis of the deposited data

How the results depend on the processing

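Of 30 alternatives, 18 stayed within the limits set and 12 moved the value. The limit was a factor of 1.5 for counts and ranks, and the 95% interval of the main value otherwise. For the medians that interval was taken over the 9 sites, from 3.49 to 15.0 in fold and from 27 to 170 in fragments. The sites are not replicates and these limits are wide, so staying within them says little. The windows overlap and share sites, so for their share a move past its limit says little either. None of the values has a direction that a setting could reverse. The number of sites in the window was 6 to 10. The median fold was 11.2 and the median fragments 95 in the 6 sites that scored above the median of the list, which follows from leaving out the weaker sites. The share of windows with as many sites was 1.75% with those above-median sites alone and 3.30% with sites within 1 kb merged. The fold of site 9 was 66.9 without a pseudocount and 19.8 with 5, and that of site 6 was 8.45 with 5. Site 9 ranked 3 by score, 1 by fold, 34 by fragments, 28 by fragments above the control level and 417 by width. Site 6 ranked 72 by score, 1192 by fold, 1 by fragments and 1 by fragments above the control level. These moves in fold and rank follow from the measure ranked or the pseudocount, and those in the share of windows from the sites counted. Motifs at the summits and the gene lists (partners of Lbh, cardiolipin enzymes) were planned for an mm9 genome only and not run. Leaving out a replicate could not be done in a merged list. No paired analysis was possible because the labels give no replicate numbers and the replicates are merged. Sites that missed the caller's threshold are absent. The control level of sites 4, 7 and 9, taken as a count at the summit, rests on few fragments, which limits their high folds.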
